A study of Mus musculus with 24 samples.

Results

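Tnfaip3, Tnip1, Tnip2, Tnfaip2 and Zc3h12a are 5 mouse genes known from other systems as targets or brakes of TNF signalling. They were taken by symbol from a count table of 15738 named genes. All 5 had a row, and all 5 were among the 13527 genes that passed a filter on low counts and were tested. The cells were B16F10, a pigmented mouse melanoma line, in 4 genotypes. These were a control knockout that the labels call WT, a knockout of Rnf31, a knockout of Atg5 and a double knockout of both. Each genotype received vehicle or TNFα (2 ng/ml) for 24 h, which gave 8 groups of 3 libraries. Whether each line was a clone or a pool, and where the genes were edited, is not given in the sources used here. The replicates are labelled biological, but whether they were separate cultures is not stated in these sources, and each p-value measures only the spread among the libraries.

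When TNF binds its receptor TNFR1, adaptors and ubiquitin ligases assemble chains that recruit the IKK kinases, and these release NF-kB to the nucleus. Rnf31, also called HOIP, is the catalytic subunit of the complex that builds linear ubiquitin chains there. Atg5 is part of the conjugation machinery that builds autophagosomes. NF-kB also switches on its own inhibitors: A20, encoded by Tnfaip3, removes and edits ubiquitin chains, the ABIN adaptors encoded by Tnip1 and Tnip2 bind A20 and ubiquitin, and Regnase-1, encoded by Zc3h12a, is an RNase that degrades inflammatory mRNAs. Tnfaip2, also called M-Sec, is a TNF-inducible protein that takes part in the formation of membrane nanotubes.

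None of the 5 genes passed the test for a response to TNFα in any genotype. Few genes of any kind did at 24 h: 0.0961% of all tested genes in control cells, 1.17% in the Rnf31 knockout, 0% in the Atg5 knockout and 0.133% in the double knockout. The lack of calls is therefore near the overall share and is not particular to these genes. Levels did differ between genotypes for all of them but Tnip2. With vehicle, Tnfaip3, Zc3h12a, Tnfaip2 and Tnip1 were higher in the Atg5 knockout than in control cells, and lower in the double knockout than in the Atg5 knockout. Tnip2 did not pass the test between any of the groups compared.

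On GRCm38 with the GENCODE M21 annotation all 5 are protein-coding genes. Tnfaip3 lies on chr10:19000910-19015657, Tnip1 on chr11:54910785-54962917, Tnip2 on chr5:34496087-34513991 and Zc3h12a on chr4:125118423-125127840, all on the minus strand. Tnfaip2 lies on chr12:111442469-111455018 on the plus strand and shares 314 exon bases with the antisense gene Gm40578. Reads of that stretch cannot be assigned between the pair, since the strand setting is not given in the sources used here. Because these genes are known NF-kB targets and 4 of them differed together between genotypes, their promoters were searched for the NF-kB consensus on both strands. The windows, from RefSeq on GRCm38.p6, ran from 250 bases before to 50 bases after each annotated start. The strict form of the consensus, which begins with 3 G's, was found in 3 of the 5 genes. The loose form, which begins with 2, was found in 4 of the 5. The 5 genes have 6 windows, and the shares that follow are per window. Of 32851 promoter windows of this length, 8.46% held the strict and 11.2% the loose form. Over the 12846 windows of tested genes these shares were 10.5% and 13.6%. The stretches below show each match in capitals, on the strand of the gene, since they are where the named consensus occurs. The Tnip1 capitals cover 3 overlapping matches. For Tnfaip2 and for Tnfaip3 at chr10:19015411-19015440, the strict form reads on the opposite strand only, so the capitals begin with 2 G's.
Tnfaip3, chr10:19015516-19015545 (minus): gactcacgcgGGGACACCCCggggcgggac
Tnfaip3, chr10:19015411-19015440 (minus): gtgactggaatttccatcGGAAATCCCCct
Tnip1, chr11:54962978-54963007 (minus): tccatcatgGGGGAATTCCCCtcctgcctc
Tnip2, chr5:34514200-34514229 (minus, loose form): tctgactccaGGAAAATTCCtcagacgcag
Tnfaip2, chr12:111442627-111442656 (plus): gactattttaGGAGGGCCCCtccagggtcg
The Zc3h12a window and the window of a second annotated Tnfaip3 start held neither form. The matches are letters in a window and no binding was measured.

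Counts over named genes totalled 19425795 to 33385502 per library. Pairs of libraries in a group differed by more than counting noise. Their chi-square, divided by its degrees of freedom, ran from 3.09 to 30.04, and the values of 30.04 and 19.0 both belonged to control vehicle replicate 2. Atg5 stood at 54.7 ± 6.26 CPM (counts per 1e6 counts of the scaled library; mean ± SD, n = 3) in control vehicle cells, at 22.2 ± 2.35 in the Atg5 knockout and at 25.3 ± 1.44 in the double knockout. Rnf31 stood at 9.79 ± 1.08 CPM in control, 8.04 ± 0.421 in the Rnf31 knockout, 13.2 ± 0.836 in the Atg5 knockout and 6.62 ± 0.222 in the double knockout, so transcript levels checked the Rnf31 label only in part. Rnf31 also shares 123 exon bases with Irf9 on the same strand, and the part of such reads in its counts was not tested. The pigment cell genes Tyr, Tyrp1, Dct, Pmel, Mlana and Mitf were high in every library, with the lowest value, 345 CPM, for Mitf. Of 10 markers of other cells, Col1a1, Pdgfra and Pecam1 were rows of the table and the other 7 were not analysed here. These 3 together stood at 4.38 to 5.90 CPM in control vehicle, 8.42 to 9.70 in Rnf31 knockout vehicle, 8.01 to 12.3 in Atg5 knockout vehicle and 6.27 to 7.48 in double knockout vehicle libraries, and their part in the differences given here was not tested.

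**Figure D1:**
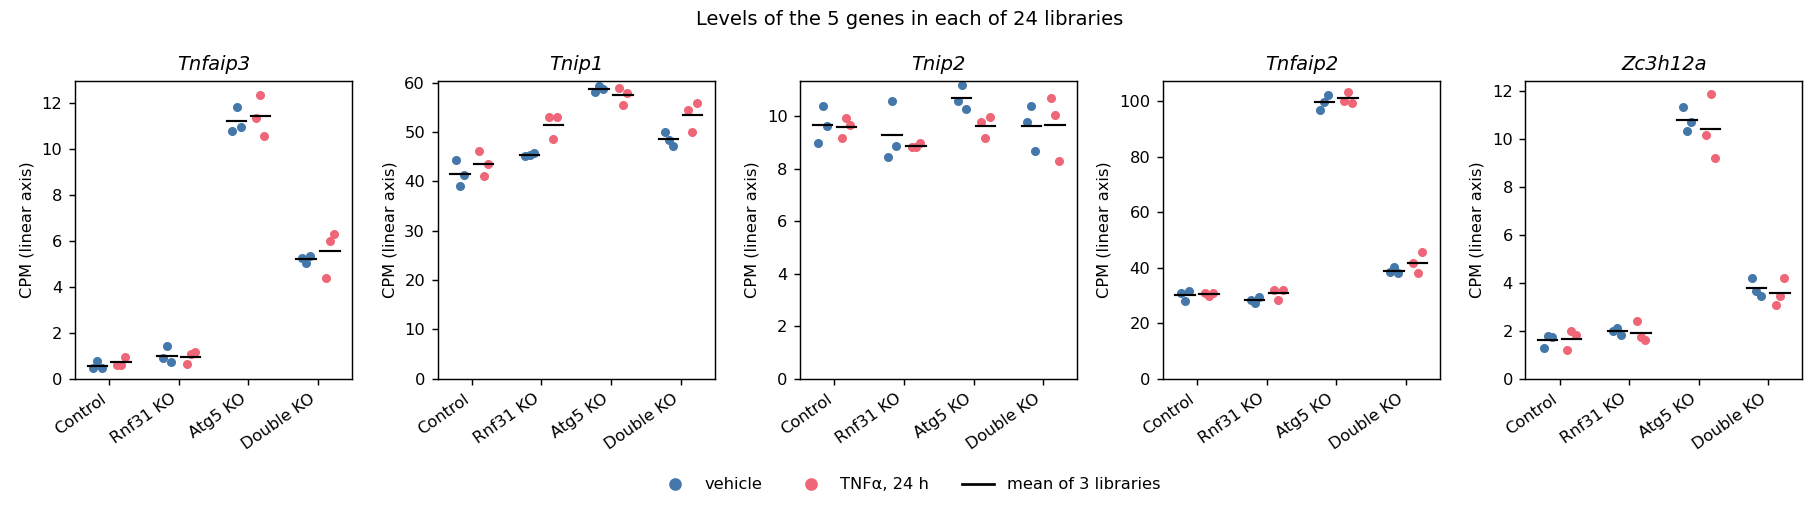
Level of each gene in CPM (linear axis, from 0) in all 24 libraries, by genotype, with vehicle in blue and TNFα in red; points are libraries and bars the mean of 3. Tnfaip3, Tnfaip2 and Zc3h12a fall into 3 separate levels (Atg5 knockout, double knockout, and control with Rnf31 knockout), and the vehicle and TNFα points of a genotype lie side by side.

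The A20 gene had few transcripts in control cells and the largest log2 rise of the 5 genes in the Atg5 knockout. With vehicle, Tnfaip3 stood at 0.438, 0.762 and 0.459 CPM in the 3 control libraries, which is 13, 24 and 12 counts. The Rnf31 knockout libraries had 0.887, 1.40 and 0.715 CPM, the Atg5 knockout libraries 10.8, 11.8 and 11.0, and the double knockout libraries 5.27, 5.04 and 5.33. The Atg5 knockout and the double knockout each stood clear of every other genotype, while the control and Rnf31 knockout libraries overlapped. Tnfaip3 rose 19.8-fold in the Atg5 knockout against control (log2 fold change 4.31 ± 0.22 SE, adjusted p = 1.54e-15, edgeR quasi-likelihood test with Benjamini-Hochberg adjustment). Of all tested genes, 0.614% rose by more. In the double knockout the rise was 9.25-fold (3.21 ± 0.23, adjusted p = 5.81e-12), and the level was 2.14-fold lower than in the Atg5 knockout (-1.10 ± 0.17, adjusted p = 5.69e-06). In RNA from whole wells, more transcript per cell and more cells holding the transcript cannot be told apart.

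Tnfaip3 was also called higher in the Rnf31 knockout with vehicle (0.82 ± 0.29, adjusted p = 0.0246), but this rested on few counts and single libraries. Without Rnf31 knockout vehicle replicate 2, the library at 1.40 CPM, the value was 0.49 (adjusted p = 0.235). Without control vehicle replicate 1 it was 0.67 (adjusted p = 0.0948), without control vehicle replicate 3 it was 0.71 (adjusted p = 0.0825), and in a fit of these groups alone the adjusted p was 0.119. An offset for transcript length gave 0.63 (adjusted p = 0.0963). With TNFα the corresponding difference was 0.36 ± 0.29 (adjusted p = 0.367).

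Tnip1, the gene for the A20-binding adaptor ABIN1, was well expressed in every group and moved far less than Tnfaip3. With vehicle it stood at 44.2, 39.1 and 41.2 CPM in control, 45.2, 45.2 and 45.6 in the Rnf31 knockout, 58.1, 59.3 and 58.8 in the Atg5 knockout and 50.002, 48.3 and 47.1 in the double knockout. With vehicle all Atg5 knockout libraries lay above those of every other genotype, and all double knockout libraries above control and Rnf31 knockout. Tnip1 rose 1.42-fold in the Atg5 knockout against control (0.50 ± 0.06, adjusted p = 1.11e-08). It rose 1.17-fold in the double knockout (0.22 ± 0.06, adjusted p = 0.00154), which was 1.21-fold lower than in the Atg5 knockout (-0.28 ± 0.06, adjusted p = 2.32e-04). Tnip1 in the Rnf31 knockout with vehicle lay just above control in all libraries, and the difference of 0.13 ± 0.06 was not called (adjusted p = 0.0669). It was called with the replicate number as a block (adjusted p = 0.0379), with the length offset (0.15, adjusted p = 0.0361) and without control vehicle replicate 1 (0.18, adjusted p = 0.0178). With TNFα the same comparison was called (0.24 ± 0.06, adjusted p = 0.00184).

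Tnip2, the gene for the related adaptor ABIN2, did not pass the test in any of the comparisons made. Its group means ran from 8.88 ± 0.0950 CPM in the Rnf31 knockout with TNFα to 10.7 ± 0.464 in the Atg5 knockout with vehicle, a 1.204-fold span, and the libraries of neighbouring groups overlapped throughout that order. Groups further apart in the order did not all overlap. In the Atg5 knockout the TNFα libraries (9.76, 9.16 and 9.97 CPM) lay below the vehicle libraries (10.6, 11.2 and 10.3), a difference that was not called. Against control with vehicle, the Atg5 knockout differed by 0.15 ± 0.10 (adjusted p = 0.220) and the double knockout by -0.01 ± 0.10 (adjusted p = 0.964).

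Zc3h12a, the gene for the RNase Regnase-1, followed the order of Tnfaip3 with a smaller span. With vehicle its levels were 1.28, 1.78 and 1.72 CPM in control, 1.98, 2.12 and 1.80 in the Rnf31 knockout, 11.3, 10.3 and 10.7 in the Atg5 knockout and 4.19, 3.66 and 3.44 in the double knockout. The Atg5 knockout and double knockout libraries were again apart from each other and from the rest. Zc3h12a rose 6.76-fold in the Atg5 knockout (2.76 ± 0.17, adjusted p = 8.15e-14), a rise exceeded by 1.97% of tested genes. The double knockout was 2.36-fold above control (1.24 ± 0.18, adjusted p = 2.19e-06) and 2.87-fold below the Atg5 knockout (-1.52 ± 0.15, adjusted p = 8.76e-09). The Rnf31 knockout libraries all lay above control, yet the difference was not called (0.30 ± 0.20, adjusted p = 0.228).

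Tnfaip2 was high in the Atg5 knockout, modestly above control in the double knockout and close to its control level in the Rnf31 knockout. With vehicle it stood at 30.9, 28.2 and 31.6 CPM in control, 28.3, 27.4 and 29.4 in the Rnf31 knockout, 97.0, 99.8 and 102 in the Atg5 knockout and 38.4, 40.3 and 38.0 in the double knockout. Control and Rnf31 knockout libraries overlapped (-0.09 ± 0.06, adjusted p = 0.270). Tnfaip2 rose 3.30-fold in the Atg5 knockout (1.72 ± 0.06, adjusted p = 3.83e-19) and 1.29-fold in the double knockout (0.37 ± 0.06, adjusted p = 1.71e-05). The double knockout was 2.56-fold lower than the Atg5 knockout (-1.36 ± 0.06, adjusted p = 3.39e-16), the smallest p of the 5 genes in that comparison.

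Divided by the length of the longest annotated transcript, the genes ranked differently by genotype. In control vehicle cells Tnip1 was highest at 13.96 CPM per kb, followed by Tnfaip2 at 7.77, Tnip2 at 4.78, Zc3h12a at 0.578 and Tnfaip3 at 0.0892. In the Atg5 knockout Tnfaip2 led at 25.6 CPM per kb, ahead of Tnip1 at 19.8, Tnip2 at 5.29, Zc3h12a at 3.91 and Tnfaip3 at 1.80. By this measure Tnfaip3 remained the lowest of the 5 even where it had risen most. The order rests on the division by length. In CPM, Tnfaip3 in the Atg5 knockout with vehicle (11.2) stood slightly above Zc3h12a (10.8) and Tnip2 (10.7). Whether counts scale with transcript length in these libraries, and which transcript is expressed, was not tested.

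These calls stand beside large backgrounds, since many genes differed between the lines. With vehicle, 4 of the 5 genes were called higher in the Atg5 knockout, where 62.0% of all tested genes were called in either direction. In the double knockout against control 4 of 5 were called higher beside 52.4% of all genes, and against the Atg5 knockout 4 of 5 were called lower beside 38.1%. In the Rnf31 knockout 1 of 5 was called beside 45.6%. The median log2 fold change of the 5 genes was 1.72 in the Atg5 knockout against control, beside 0.01 over all tested genes, 0.37 beside -0.01 in the double knockout against control, and -1.10 beside -0.01 in the double against the Atg5 knockout. The comparisons with control share the same 3 control vehicle libraries.

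The differences of the Atg5 knockout from control were also seen with TNFα for 4 of the 5 genes. With TNFα added, Tnfaip3 stood at 11.3, 12.4 and 10.6 CPM in the Atg5 knockout against 0.603, 0.580 and 0.955 in control (3.96 ± 0.22, adjusted p = 7.07e-15). Zc3h12a (10.2, 11.9 and 9.18 CPM against 1.21, 1.96 and 1.81) was higher by 2.65 ± 0.17 (adjusted p = 3.07e-13). Tnfaip2 (100, 104 and 99.5 CPM against 30.8, 29.9 and 31.0) was higher by 1.72 ± 0.06 (adjusted p = 4.75e-19). Under TNFα 4 of 5 genes were called higher in the Atg5 knockout against control beside 58.9% of all genes, 4 of 5 in the double knockout against control beside 45.7%, and 1 of 5, Tnip1, in the Rnf31 knockout beside 32.3%. In the double against the Atg5 knockout 3 of 5 were lower beside 38.2% of all genes. The one that dropped out was Tnip1, at 54.5, 49.9 and 55.9 CPM in the double knockout and 58.8, 55.5 and 57.8 in the Atg5 knockout with TNFα (-0.10 ± 0.06, adjusted p = 0.158).

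**Figure D2:**
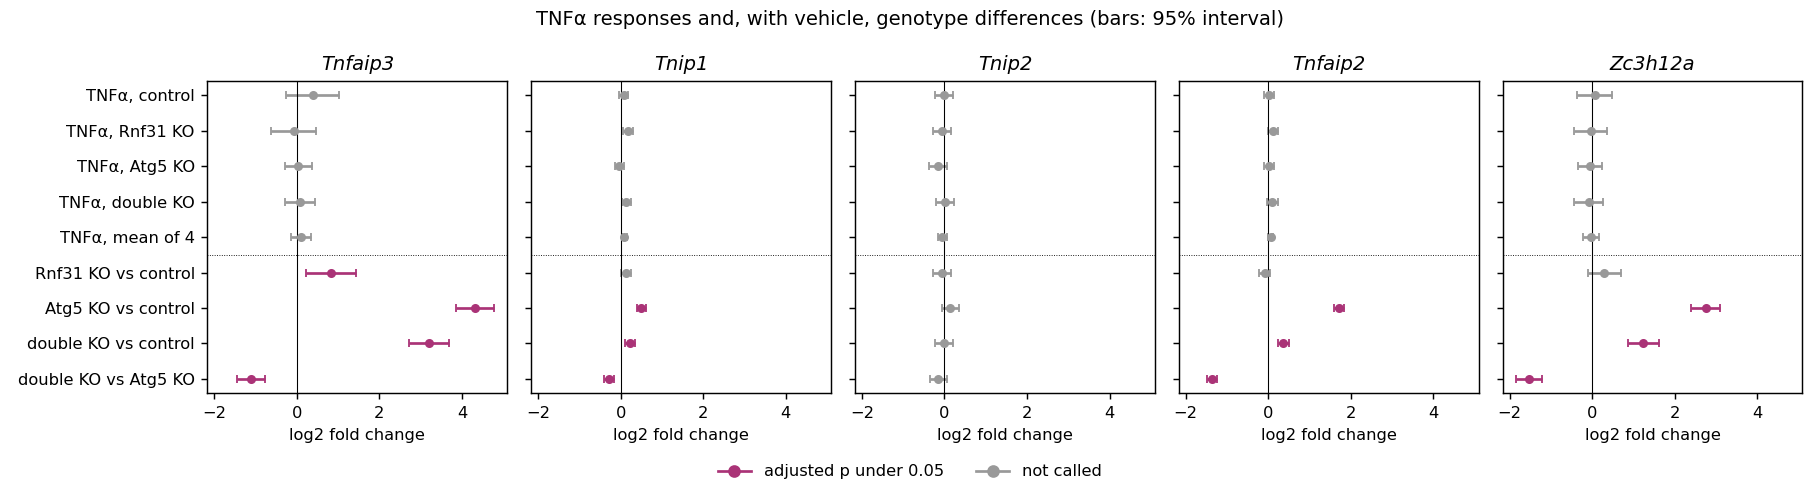
Log2 fold change of each gene for the TNFα responses (upper rows, including the mean of the 4 genotypes) and the genotype differences with vehicle (lower rows); points are edgeR estimates, bars 95% intervals, purple where the adjusted p is under 0.05. Every TNFα row is grey, while the Atg5 knockout row is purple for all genes but Tnip2.

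The TNFα response was measured within each genotype as TNFα against vehicle. In control cells Tnfaip3 differed by 0.38 on the log2 scale, with a 95% interval of -0.26 to 1.03 (adjusted p = 0.496) at 12 to 30 counts per library. For Tnip1 the interval was -0.05 to 0.19, for Tnip2 -0.22 to 0.20, for Tnfaip2 -0.11 to 0.15 and for Zc3h12a -0.36 to 0.48. The upper bounds for Tnip1 (0.19) and Tnfaip2 (0.15) lie below the log2 differences of these genes between Atg5 knockout and control cells (0.50 and 1.72). In the Atg5 knockout, where Tnfaip3 and Zc3h12a had more counts, the responses were 0.03 (95% interval -0.29 to 0.35) and -0.05 (-0.34 to 0.25).

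By edgeR's quasi-likelihood test 0 of 5 genes were called in the control response, beside 0.0961% of all tested genes (13 genes), and 0 of 5 had an unadjusted p under 0.05. The number of genes called in control cells depended on single libraries: it was 2200 without control vehicle replicate 1, 0 without control vehicle replicate 3, 687 with DESeq2 and 0 with the length offset. None of the 5 was called under any of these. In the Rnf31 knockout 0 of 5 were called beside 1.17%, and 1 had an unadjusted p under 0.05. That gene was Tnip1, at 45.2, 45.2 and 45.6 CPM with vehicle and 53.1, 48.5 and 52.9 with TNFα (0.18 ± 0.06, unadjusted p = 0.00316, adjusted p = 0.132). All 3 TNFα libraries lay above all 3 vehicle libraries there. In the Atg5 knockout 0 of 5 were called beside 0%, with 0 at an unadjusted p under 0.05. In the double knockout 0 of 5 were called beside 0.133%, and 1, again Tnip1, had an unadjusted p under 0.05 (0.14 ± 0.06, adjusted p = 0.461). DESeq2 called 0 of the 5 in each genotype and gave 0, 1, 0 and 1 genes with an unadjusted p under 0.05, in the same order.

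Averaged over the 4 genotypes, which uses 12 libraries against 12, the response was 0.09 ± 0.03 for Tnip1 (adjusted p = 0.254), 0.06 ± 0.03 for Tnfaip2 (adjusted p = 0.663) and 0.10 ± 0.12 for Tnfaip3 (adjusted p = 0.933). No gene of the 5 was called by edgeR or DESeq2 beside 0.466% of all genes, and 2 by edgeR and 1 by DESeq2 had an unadjusted p under 0.05. TNFα did raise some genes of the pathway in that average. Of 10 tested genes for NF-kB subunits and their IkB-type inhibitors, 3 rose and 0 fell. They were Relb, a subunit of the non-canonical pathway (0.41 ± 0.06, adjusted p = 1.51e-04), Nfkbia, the gene for IkBα (0.32 ± 0.06, adjusted p = 0.00495), and Nfkb2, the precursor partner of RelB (0.25 ± 0.04, adjusted p = 0.00151). The average does not hold for each genotype. In the Atg5 knockout the values were -0.04 ± 0.10 for Relb, 0.07 ± 0.10 for Nfkbia and 0.04 ± 0.08 for Nfkb2. For Relb the Atg5 knockout response minus the control response was called (-0.61 ± 0.16, adjusted p = 0.0196), beside 11.4% of all genes. In control cells Relb (0.58 ± 0.12, adjusted p = 0.0551), Nfkb2 (0.35 ± 0.09, adjusted p = 0.0608) and Nfkbia (0.19 ± 0.13, adjusted p = 0.389) were not called. In the Rnf31 knockout response 4 of the 10 rose, beside 1.17% of all tested genes called. Relb rose most (8.18 ± 0.526 CPM with TNFα against 4.34 ± 0.430, log2 fold change 0.92 ± 0.12, adjusted p = 5.55e-05) among those called. The count of 4 was 2 when any of 5 single libraries of those groups was left out (vehicle replicate 1, 2 or 3, TNFα replicate 1 or 3).

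Differences between genotypes in the size of the TNFα response were tested directly. By edgeR 0 of 5 genes were called for the Rnf31 knockout minus control (log2 values of -0.46 to 0.11, beside 0.00739% of all genes), with 0 at an unadjusted p under 0.05. For the Atg5 knockout minus control 0 of 5 were called (-0.35 to 0.00, beside 11.4%), again with 0 at an unadjusted p under 0.05. That background of 1536 genes was 231 with the length offset. For the double knockout minus control 0 of 5 were called (-0.30 to 0.08, beside 1.15%), and 0 had an unadjusted p under 0.05. For the double minus the Atg5 knockout 0 of 5 were called (-0.04 to 0.18, beside 0.00739%), and Tnip1 alone had an unadjusted p under 0.05 (0.18 ± 0.08). DESeq2 called none of the 5 in these 4 comparisons.

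The double knockout with vehicle was also set against the single knockouts. If the differences of the single knockouts from control added on the log2 scale, the double knockout would lie at their sum. The departure from that sum was -1.92 ± 0.34 for Tnfaip3 (adjusted p = 5.51e-05) and -1.82 ± 0.25 for Zc3h12a (adjusted p = 2.23e-06). The sum for Tnfaip3 includes its Rnf31 knockout value of 0.82, which rested on few counts and single libraries. For Tnfaip2 the departure was -1.27 ± 0.09 (adjusted p = 9.45e-12) and for Tnip1 -0.41 ± 0.08 (adjusted p = 1.90e-04). Tnip2 did not pass (-0.09 ± 0.15, adjusted p = 0.640). Thus 4 of 5 genes lay below additivity, beside 40.7% of all tested genes in either direction, and the median of the 5 was -1.27 beside -0.02 over all genes. This comparison uses the vehicle libraries of the genotype comparisons above and is not independent of them. A difference particular to any line cannot be told apart here from an effect of the knockouts.

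**Figure D3:**
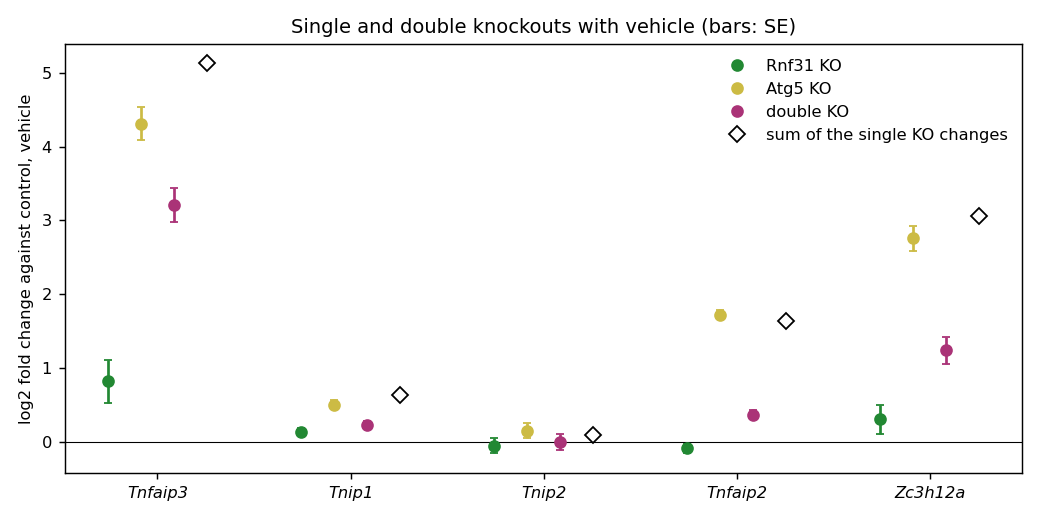
Log2 fold change against control with vehicle for the Rnf31, Atg5 and double knockouts (points, bars are SE) and the sum of the single knockout changes (open diamonds). The double knockout point minus the diamond is -1.92 for Tnfaip3, -1.82 for Zc3h12a, -1.27 for Tnfaip2 and -0.41 for Tnip1. The Tnfaip3 diamond includes a Rnf31 knockout value that rested on few counts and single libraries.

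Genes of NF-kB itself were also higher in the Atg5 knockout. Of the 10 tested, 9 rose and 1 fell with vehicle, with a median of 1.37 beside 0.01 over all genes, of which 62.0% were called in either direction. The largest rises were of the atypical IkB proteins Bcl3 (10.3 ± 1.52 CPM against 0.305 ± 0.125, log2 fold change 5.04 ± 0.28, adjusted p = 6.85e-15) and Nfkbiz (39.9 ± 2.85 against 4.21 ± 0.217, 3.24 ± 0.10, adjusted p = 2.15e-20). Nfkbia, whose product holds NF-kB in the cytoplasm, went from 9.32 ± 0.544 to 54.3 ± 3.05 CPM (2.54 ± 0.12, adjusted p = 9.44e-17). In the double knockout 8 of 10 rose against control and 0 fell (median 0.77 beside -0.01, 52.4% of all genes called), and against the Atg5 knockout 8 fell and 1 rose (median -0.62 beside -0.01, 38.1% called). Bcl3 was lower there by 2.46 on the log2 scale (-2.46 ± 0.21), Nfkbiz had -1.73 ± 0.09 and Nfkbia -1.502 ± 0.107. Of these 10 genes 8 lay below additivity and 0 above, where 40.7% of all genes departed in either direction.

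**Figure D4:**
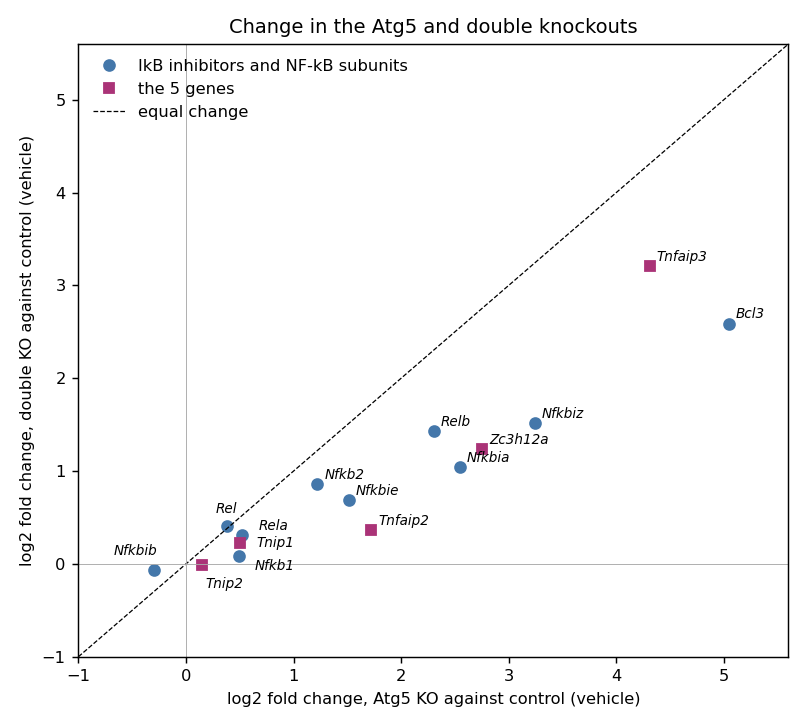
Log2 fold change against control with vehicle in the Atg5 knockout (horizontal) and the double knockout (vertical), for the 5 genes (squares) and the 10 tested NF-kB subunit and inhibitor genes (circles); the dashed line marks equal change. Both axes share the control libraries, so position along the diagonal is not independent; Tnfaip3 (4.31, 3.21) and Bcl3 (5.04, 2.59) lie furthest out, and both lie below the line.

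Among the enzymes and adaptors that work beside A20 the changes were smaller in size than that of Tnfaip3. Of 8 tested A20 partners and ubiquitin-editing relatives, 4 rose and 0 fell in the Atg5 knockout with vehicle (median 0.19 beside 0.01), a share below the 62.0% of all tested genes called there. Cyld, another deubiquitinase that restrains NF-kB, rose most (63.6 ± 2.46 CPM against 34.8 ± 2.35, 0.87 ± 0.06, adjusted p = 2.17e-12), followed by Vcpip1 (0.50 ± 0.07) and Otud7b (0.39 ± 0.06), both of which encode deubiquitinases. Against the Atg5 knockout, the double knockout had lower Cyld (-0.41 ± 0.06, adjusted p = 5.58e-06) and Tax1bp1, an A20 adaptor (-0.31 ± 0.04, adjusted p = 1.23e-07), and higher Otud7b (0.23 ± 0.06, adjusted p = 0.00453).

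Of 18 tested genes of the TNF receptor signalling complex, 12 rose and 1 fell in the Atg5 knockout with vehicle (median 0.25 beside 0.01), next to 62.0% of all genes called. The ubiquitin ligases Birc3 (4.64 ± 0.567 CPM against 1.61 ± 0.358, 1.52 ± 0.20, adjusted p = 1.31e-07) and Birc2 (1.07 ± 0.10, adjusted p = 4.68e-10) and the receptor gene Tnfrsf1a (0.45 ± 0.06, adjusted p = 3.27e-07) had the largest changes among the called genes. In the double against the Atg5 knockout 8 fell and 3 rose beside 38.1% of all genes called, a total of 11 that was 7 without Atg5 knockout vehicle replicate 1. The 3 called genes with the largest changes there were Birc3 (-1.496 ± 0.196), Rnf31 itself (-0.996 ± 0.0996), which is a targeted gene, and Birc2 (-0.75 ± 0.10).

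Regnase-1 acts beside other factors that destabilise mRNA. Of 9 tested mRNA decay factors 7 rose and 1 fell in the Atg5 knockout with vehicle (median 0.46 beside 0.01, 62.0% of all genes called), led by Khnyn, which carries a related RNase domain (24.3 ± 2.65 CPM against 6.96 ± 1.01, 1.80 ± 0.12, adjusted p = 1.60e-13), Zfp36, the gene for tristetraprolin (0.96 ± 0.16, adjusted p = 5.13e-06), and the Regnase family gene Zc3h12b (0.93 ± 0.20, adjusted p = 1.68e-04). With TNFα 4 were higher and 2 lower in the Atg5 knockout than in control (median 0.11 beside 0.01, and 58.9% of all genes called). Zc3h12b was not among them (-0.17 ± 0.20, adjusted p = 0.465). The 2 lower genes were Zfp36l2 (27.0 ± 2.17 CPM against 51.4 ± 2.04, -0.93 ± 0.06, adjusted p = 8.05e-13) and N4bp1 (-0.24 ± 0.06, adjusted p = 8.57e-04). Of the known Regnase-1 substrates 3 were tested, and Nfkbiz, Rel and Il6 were all called higher in the Atg5 knockout with vehicle, beside 62.0% of all genes called. With TNFα 2 of the 3 were called (1 when only these groups were fitted), and Rel was not (0.02 ± 0.13, adjusted p = 0.888). With vehicle Rel, an NF-kB subunit, changed least (0.38 ± 0.12, adjusted p = 0.00968) and was not called with the length offset (0.19, adjusted p = 0.168). Il6 had 49 counts over the 3 Atg5 knockout vehicle libraries and 4 over the 3 control vehicle libraries.

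Inhibitors of other cytokine and stress pathways were listed as well. Of 8 tested, 5 rose and 0 fell in the Atg5 knockout with vehicle (median 0.93 beside 0.01), a share near the 62.0% of all genes called. The stress response gene Ier3 stood at 308.5 ± 10.4 CPM against 19.8 ± 3.40 (3.97 ± 0.12, adjusted p = 1.16e-20), and the pseudokinase gene Trib3 rose by 2.68 ± 0.11 (adjusted p = 1.32e-17). Both were lower in the double than in the Atg5 knockout with vehicle, Ier3 with a log2 fold change of -1.02 ± 0.10 (adjusted p = 4.66e-09) and Trib3 with -0.71 ± 0.10 (adjusted p = 1.33e-06). Usp18, the brake on type I interferon signalling, went the other way: it rose by 5.77 ± 0.25 in the Atg5 knockout and stood higher still in the double knockout (42.3 ± 4.44 CPM against 22.6 ± 5.61, 0.90 ± 0.14, adjusted p = 1.41e-05).

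Relatives by family or by name were counted too. Of 4 tested relatives of Tnfaip2 in the exocyst Sec6 family, 0 were called in the Atg5 knockout with vehicle by edgeR, beside 62.0% of all genes. DESeq2 also called 0, and 0 had an unadjusted p under 0.05 by edgeR. When Atg5 knockout vehicle replicate 2 was left out, 1 was called. Exoc3l and Exoc3l2 had only 26 and 15 counts over the 3 control vehicle libraries, which limits the test for them. With TNFα 2 of the 4 were higher in the Atg5 knockout than in control, beside 58.9% of all genes called. They were Exoc3l2 (0.879 ± 0.377 CPM against 0.281 ± 0.0354, 1.62 ± 0.52, adjusted p = 0.00900) and Exoc3l4 (0.62 ± 0.14, adjusted p = 4.61e-04). Exoc3l2 was not called without Atg5 knockout TNFα replicate 1 (1.26, adjusted p = 0.0653). Against the Atg5 knockout with vehicle, 1 of the 4 fell in the double knockout, beside 38.1% of all genes called. It was Exoc3l4 (4.15 ± 0.419 CPM against 6.88 ± 0.744, -0.73 ± 0.14, adjusted p = 1.68e-04). Of 4 other tested genes named for induction by TNF, 1 rose in the Atg5 knockout with vehicle, a share below the 62.0% of all genes called. It was the apoptosis regulator Tnfaip8 (33.1 ± 1.36 CPM against 24.5 ± 1.05, 0.43 ± 0.08, adjusted p = 2.09e-05). Without control vehicle replicate 1, 2 of these 4 were called.

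Across the 8 group means, the patterns of Tnfaip2 and Zc3h12a were most alike among the 5 genes (Pearson r = 0.977 on mean log2 CPM), and Tnfaip3 and Zc3h12a had r = 0.950. The lowest value was r = 0.394 for Tnip1 and Tnip2. Of 10581 genes compared, those most like Tnfaip3 were Acp6, Vdac1 and Apeh (each r = 0.998), and those most like Zc3h12a were Mapre3 (r = 0.999), Lrig1 (r = 0.998) and Vamp1 (r = 0.997). For Tnfaip2 they were Cebpd (r = 0.998), Acvrl1 (r = 0.997) and Fam114a1 (r = 0.996), and for Tnip1 Fzd3 (r = 0.990), Zfp316 (r = 0.985) and Cyld (r = 0.985). Tnip2, with its narrow range, had no gene above r = 0.889. Pearson r takes no account of the size of a change. Group means ran from 18.3 to 43.2 CPM for Acp6, 447 to 821 for Vdac1 and 46.3 to 69.0 for Apeh, against a 20.6-fold span for Tnfaip3. These are descriptions over 8 points that share genotypes and libraries.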

How the data were processed

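RNA-seq libraries of 24 samples were analysed. The authors deposited one table of expected counts per gene symbol, not normalized; this unit was inferred from its whole numbers and unequal totals. Per the submitters' processing notes, the tools were RSEM, STAR and DESeq2 and the genome builds mm10 and GRCm38, without versions or roles. The sources used here do not give the library kit, the strand setting or the annotation. Values were rounded, which changed 0 of them. A row with a blank name, 0.140% of counts on average, was left out.

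edgeR 4.0.16 in R 4.3.3 was run with TMM scaling, filterByExpr over the 8 groups (2211 genes removed) and the quasi-likelihood test on 8 group means over all 24 libraries, adjusted by Benjamini-Hochberg over 13527 genes; calls are adjusted p under 0.05. It was also run on counts simulated from its own fitted spread, which cannot show how calls depend on a single deviating library. CPM levels use TMM library sizes. Molecular identifiers are not mentioned, so counts may carry amplification as well as sampling error.

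Groups came from the labels. Of 18 comparisons, 16 were planned, and the averaged TNFα response and the departure from additivity were added after the data were seen. Members and lists were chosen with earlier results of these data known. Genes were named by rule: the 5 genes, the targeted genes, up to 3 called genes of each list with the largest change, and the 3 genes most alike in pattern, at 2 CPM or more in a group. Il6 and Rel are named as part of a count of 3, and N4bp1, Rel and Zc3h12b with TNFα were chosen after their values were seen.

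Alternatives were RLE size factors, no filter, a mean of 1 CPM, DESeq2 1.42.0, a replicate block, a fit of the groups compared, and leaving out each library. An offset for transcript length (lowess on log2 length, known for 98.7% of tested genes), and counts of list members under the alternatives, were added after the data were seen.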

Additional observations from a re-analysis of the deposited data

Results flagged for a closer look

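With vehicle, the difference between lines with and without the Atg5 knockout was not the same in Rnf31 knockout and control backgrounds. This held for 4 of the 5 genes, beside 40.7% of all tested genes. It was a test of the difference itself (an interaction term, edgeR quasi-likelihood test). A difference particular to any line would give the same term and cannot be told apart from an effect of the knockouts. The Atg5 knockout difference in the Rnf31 knockout background minus that in the control background was -1.92 ± 0.34 on the log2 scale for Tnfaip3 (adjusted p = 5.51e-05). For Zc3h12a it was -1.82 ± 0.25 (adjusted p = 2.23e-06). For Tnfaip2 it was -1.27 ± 0.09 (adjusted p = 9.45e-12) and for Tnip1 -0.41 ± 0.08 (adjusted p = 1.90e-04). These are the same values as the departures from additivity given above, and the limit given there for Tnfaip3 applies here too.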

How the results depend on the processing

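The number of the 5 genes called changed by more than 1.5 times in 1 comparison only, the Rnf31 knockout against control with vehicle. It was 1 as reported, 2 with a replicate block, 0 when only the compared groups were fitted and 0 to 1 with one library left out. Tnip1 was called there with the replicate block (0.13, adjusted p = 0.0379), without control vehicle replicate 1 (0.18, adjusted p = 0.0178) and with the length offset (0.15, adjusted p = 0.0361). Over all comparisons and alternatives, 8 of 1394 values of the 5 genes changed side of the threshold, all in that comparison, and 82 changed sign, none of them called before or after (lowest adjusted p = 0.414). The causes were not tested. Replicate numbers are shared between groups. Libraries of the same number deviated together weakly, if at all (median r = 0.008, from -0.10 to 0.08 over 84 pairs). Pairs of other numbers had a median r of -0.005 (168 pairs). Of 24 libraries, 13 correlated best with their own number, and whether the numbers mark a pairing was not tested. The block is therefore given as an alternative. It changed no other call of the 5 genes. Over all genes the block gave 182 calls against 13 in the control response. For the response difference from control it gave 2003 against 1536 in the Atg5 knockout and 533 against 156 in the double knockout. For all genes, the double knockout response held 18 calls, 0 to 33 with one library left out and 69 with DESeq2, the Atg5 knockout response 0 and 70 with DESeq2, the Rnf31 knockout response 158, 72 to 123 with one library left out and 331 with only its own groups fitted. The response difference from control had 1536 calls in the Atg5 knockout, 293 to 3155 with one library left out, 156 in the double knockout, 13 to 1773, and 1 in the Rnf31 knockout, 0 to 113. A fit of the groups compared was not possible for the averaged response, which uses every group. Low counts limit Tnfaip3 and Zc3h12a in control and Rnf31 knockout cells.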
